A study of Mus musculus with 24 samples.

Results

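Brain cells take up, store and release iron through a small set of proteins, and the genes of 10 of these proteins were followed in the mouse hippocampus after a night of corticosterone, the main glucocorticoid of rodents. The genes were Heph, Cp and Slc40a1 (export), Tfrc, Trf and Slc11a2 (uptake), Fth1 and Ftl1 (storage), and Ireb2 and Aco1 (iron regulatory proteins). A probe was taken for a gene when the transcript accession printed in the array design led to that gene's symbol. This gave 22 probes of the 56605 on the array, and 10 genes of the 23787 that could be named. The set was chosen by the difference between corticosterone-treated and control mice on these arrays, which was already known to be large for Heph. The corticosterone differences of the 10 genes are therefore described here and no p-value is given for them. Where such a difference is said to be called or not called, this is part of the description and not evidence for it.

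Male Swiss-Webster mice were 12 weeks old at the start and were then kept singly for a period of habituation. After it they drank either water with 100 µg/ml of corticosterone dissolved with 0.45% hydroxypropyl-β-cyclodextrin or, as controls, water with the cyclodextrin alone. The bottles were given through the dark phase, and the mice were killed in hour 1, 5 or 9 of the light phase that followed, when mice rest. Each of the 6 groups had 8 mice, and controls were siblings of treated mice. RNA of 1 control mouse (Cy3) and 1 treated mouse (Cy5) was put on each of the 24 arrays, with no dye swap. A dye difference that stays the same from array to array therefore cannot be told apart from an effect of corticosterone, whereas comparisons of hours within one treatment hold the dye constant. The arrays lay on 3 slides, all hours being on every slide.

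The median raw signal of an array was typically 99 in Cy3 and 156 in Cy5 (medians over the 24 arrays), and 60.8% to 73.5% of probes were well above background. No member spot was lost as an outlier and no 2 arrays were identical. All 8 neuronal markers looked at (such as Rbfox3, Camk2a and Prox1, the last a marker of dentate granule cells) had a mean intensity of 50 or more, the level under which signals were taken as low. In such bulk tissue, fewer cells of a type and less RNA per cell cannot be told apart.

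Iron circulates bound to transferrin (Trf). Cells bind it with the transferrin receptor (Tfrc), take it into endosomes, and pass it to the cytosol through the transporter DMT1 (Slc11a2). Iron that is not used is kept inside ferritin, a shell of heavy (Fth1) and light (Ftl1) chains. Ferroportin (Slc40a1) is the exporter of iron from cells, and the copper-containing ferroxidases hephaestin (Heph) and ceruloplasmin (Cp) oxidise the released iron so that transferrin can bind it. Iron regulatory proteins 1 (Aco1, which is also the cytosolic aconitase) and 2 (Ireb2) bind iron-responsive elements in messenger RNAs, among them those of ferritin, ferroportin and the transferrin receptor, when iron is scarce. In the brain, oligodendrocytes are known as iron-rich cells that make transferrin.

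Glucocorticoids act through a receptor that binds DNA at pairs of half-sites, and the promoters of the members were searched for the half-site AGAACA on both strands in the 250 bases before the start. RefSeq promoter sequences (GRCm38.p6) were at hand for 6 of the 10 genes, namely Cp, Tfrc, Fth1, Ftl1, Ireb2 and Aco1. The half-site was present in 3 of their 9 promoters, each of another gene, and in 16.1% of all 32851 promoters of the table. The stretches around it are shown for these 3 genes, of which Cp and Aco1 were called as higher and Ireb2 as lower in treated mice at hour 1. The Aco1 call was lost with the control and treated mouse of each array taken as a pair. Capitals mark the half-site, which in Aco1 is on the opposite strand and so reads TGTTCT.
Cp (chr3:19956932-19956961, + strand): gggattgctagaAGAACAaagggagcattt
Ireb2 (chr9:54863590-54863619, + strand): ctccagctctggAGAACAacagaggctgcg
Aco1 (chr4:40143059-40143088, + strand): ccacgagtctctTGTTCTaggggtgggacg
The half-site begins 110 bases before the start of the promoter record in Cp, 153 in Ireb2 and 194 in Aco1. In Cp and Ireb2 that start lies inside the annotated gene, which begins at chr3:19956933 and chr9:54862658. The half-sites of these genes thus also lie inside the annotated gene. It was not found in these windows of Tfrc, Fth1 and Ftl1, of which Tfrc and Fth1 were also called at hour 1, nor in the other Cp promoter. The full palindrome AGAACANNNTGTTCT was in none of the 9 member windows and in 0.00913% of all promoters. A match is a description of the letters only, and it says nothing of binding.

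Log2 differences are given as corticosterone minus control, so that 1 stands for a doubling, with the standard error (SE) of the fit. Intensities are normalized and linear. They cannot be compared between probes, so genes are compared by their log2 differences only. A probe is counted as called when the limma test across all probes gave an adjusted p below 0.05. At hour 1, 7 member probes were called higher in corticosterone-treated mice and 5 lower, where 8.84% of all probes were called higher and 8.67% lower. At hour 5 these counts were 5 and 5, against 8.62% and 9.47% of all probes. At hour 9 they were 5 and 2, against 7.01% and 6.97%. As the members were chosen with these differences known, nothing is read from their share, and a single call is not a test of a member. The comparisons of hours reuse the same intensities, so their calls and p-values are not fully independent of that choice.

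The median log2 difference of the 22 probes was 0.07 at hour 1, 0.06 at hour 5 and -0.01 at hour 9, and that of all probes was within 0.01 of 0 at each hour. The genes thus had no common direction, and Heph stood by itself at the top. On each of the 24 arrays, the log2 ratio of the brightest Heph probe was higher than that of the brightest probe of each of the 9 other genes. The smallest gap between Heph and the next gene was 0.24 at hour 1, 0.53 at hour 5 and 0.60 at hour 9. Heph was chosen with its large difference on these arrays known, so this rank is a description and not a finding.

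**Figure D1:**
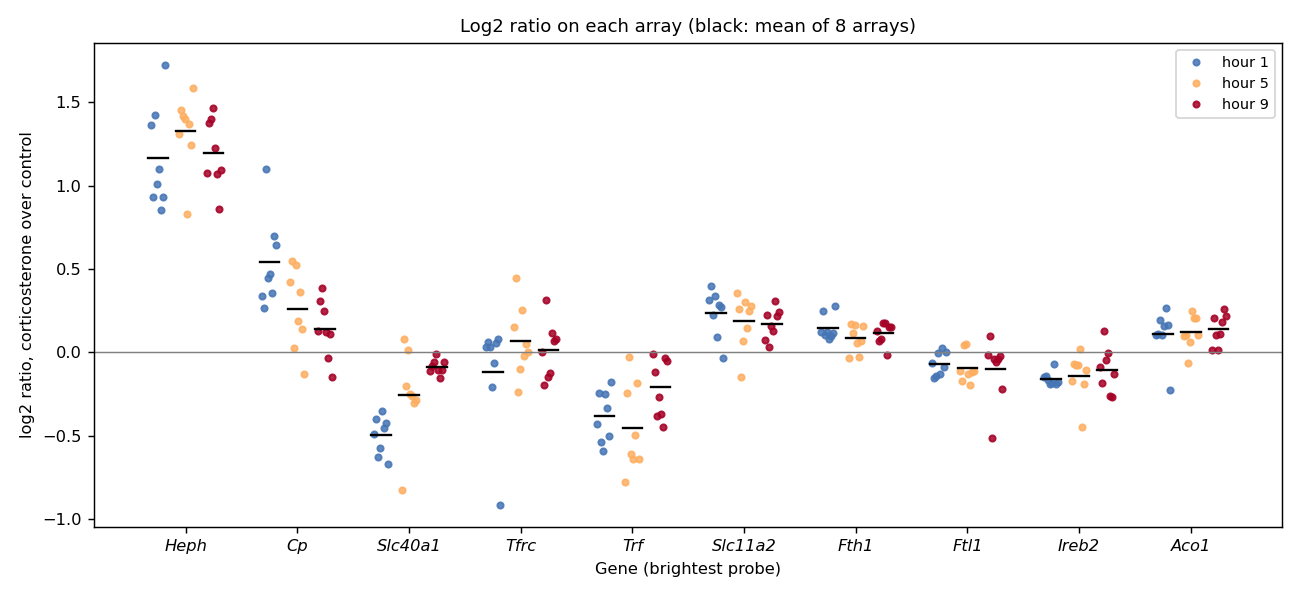
Log2 ratio of corticosterone over control (vertical axis) on each array for the brightest probe of each of the 10 iron genes, with 8 arrays at hour 1, 5 and 9 in blue, orange and red and black lines for means. All 24 points of Heph lie above 0.8, Slc40a1 and Cp move toward 0 from hour 1 to hour 9, and the means of Fth1, Ftl1, Ireb2 and Aco1 lie within 0.16 of 0.

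Heph encodes hephaestin, a membrane-bound ferroxidase. Its brightest probe (A_55_P2488639) gave control intensities at hour 1 from 347 to 547 with a median of 407, and intensities in corticosterone-treated mice from 728 to 1396 with a median of 929. At hour 5 the control mice lay between 280 and 484 (median 384) and the treated mice between 748 and 1103 (median 947). At hour 9 the control mice lay between 296 and 492 (median 367) and the treated mice between 668 and 990 (median 872). The groups did not overlap at any of these hours. The log2 difference was 1.17 ± 0.099 (SE, n = 8 arrays) at hour 1, 1.33 ± 0.099 at hour 5 and 1.20 ± 0.099 at hour 9, which corresponds to folds of 2.25, 2.51 and 2.29.

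A further Heph probe of the same transcript record (A_55_P1994194) was 2.22-fold higher at hour 1 and 2.21-fold higher at hour 9, with log2 differences of 1.15 ± 0.092 at both, and its groups did not overlap at any hour. Both probes were higher in the treated mouse on 8 of 8 arrays at every hour. The remaining Heph probe (A_55_P1994190, designed on another transcript record) was dim, with a mean intensity of 44.2, and its groups overlapped at every hour. Its log2 differences were 0.17 ± 0.12, 0.15 ± 0.12 and 0.12 ± 0.12, and it was not called. The large difference was thus read by both probes of one transcript record and not by the dim probe of the other. Within each slide, the mean log2 ratio of the brightest probe lay between 1.15 and 1.18 at hour 1, between 1.22 and 1.40 at hour 5, and between 0.98 and 1.33 at hour 9.

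No change of the Heph difference over the light phase was detected. The log2 difference at hour 9 minus that at hour 1 was 0.03 ± 0.14 for the brightest probe, with a 95% interval from -0.25 to 0.31 on the log2 scale. Within control mice, the brightest Heph probe changed by -0.19 ± 0.12 between hour 1 and hour 9 (limma, adjusted p = 0.64), and within treated mice it changed by -0.16 ± 0.12 (adjusted p = 0.56).

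**Figure D2:**
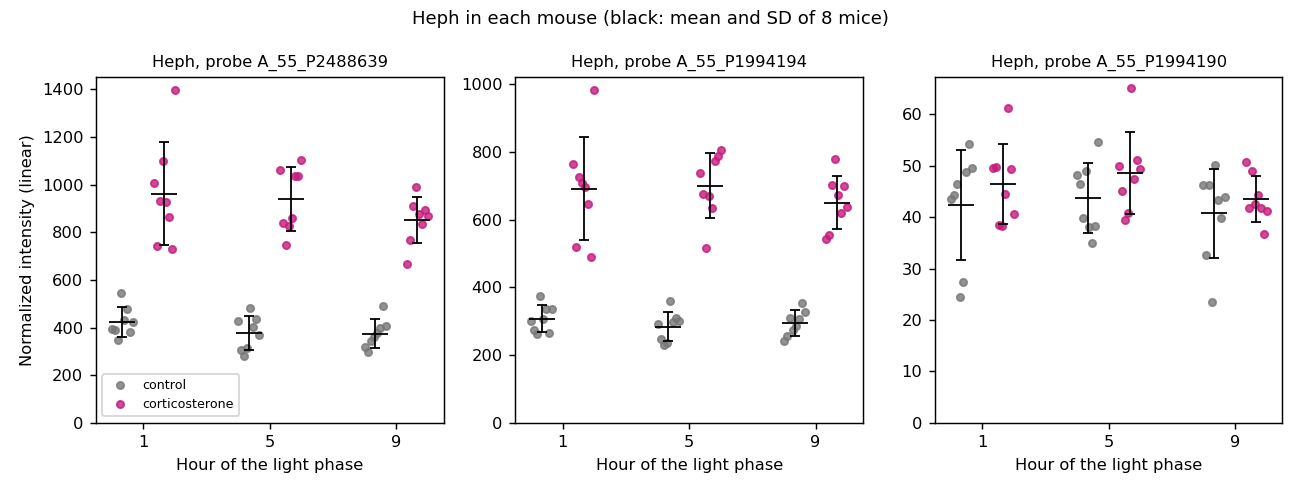
Normalized intensity (linear, vertical axis) of the 3 Heph probes in each of 48 mice by hour of the light phase, controls in grey and corticosterone-treated mice in pink, with the mean and SD of 8 mice in black. In the left and middle panels every treated mouse lies above every control mouse of its hour, and in the right panel, where the highest value is 65.2, the groups overlap.

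Cp encodes ceruloplasmin, the other ferroxidase, which astrocytes and choroid plexus make as a membrane-anchored and a secreted form. Its brightest probe (A_55_P2111302) ranged at hour 1 from 175 to 243 (median 208) in control mice and from 229 to 443 (median 287) in treated mice. The treated mouse was higher on 8 of 8 arrays, although the 2 groups overlapped. At hour 9 the control mice lay between 169 and 236 (median 199) and the treated mice between 184 and 250 (median 214). Its log2 difference was 0.54 ± 0.088 at hour 1, 0.26 ± 0.088 at hour 5 and 0.14 ± 0.088 at hour 9. The call at hour 5 was lost without array 1, 2, 4 or 6 of that hour, where the log2 difference was as low as 0.22, and without any one of the slides.

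By 2 of its 4 probes, Cp fell over the light phase in treated mice. Between hour 1 and hour 9 its brightest probe fell by 0.47 ± 0.10 on the log2 scale in treated mice (limma, adjusted p = 0.0016), and a dimmer probe of the same transcript (A_55_P2626135) fell by 0.35 ± 0.10 (adjusted p = 0.018), a call lost without array 3 of hour 1 or array 4 of hour 9 (limma, adjusted p up to 0.063) and without any one of the slides. Without slide 2 the change of the brightest probe was -0.29 and was not called (limma, adjusted p = 0.19). In control mice the brightest probe changed by -0.07 ± 0.10 (adjusted p = 0.86). The difference between these changes, -0.40 ± 0.12, was not called. The other 2 Cp probes changed by -0.17 and -0.16 in treated mice and were not called (limma, adjusted p = 0.51 and 0.54). These probes, of further transcript records and with mean intensities of 108 and 49.4, gave log2 differences at hour 1 of 0.27 ± 0.099 and 0.10 ± 0.095. The call of the former was lost without any one of 15 of the 24 arrays, and with the mice of each array taken as a pair. The dimmer probe of the first transcript record gave 0.24 ± 0.087 at hour 1.

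Slc40a1, the gene of ferroportin, went the other way from the ferroxidases. Its single probe (A_51_P389988) ranged at hour 1 from 721 to 885 (median 822) in control mice and from 527 to 669 (median 548) in treated mice, so that the groups did not overlap. At hour 5 the ranges were 723 to 1146 (median 853) and 551 to 927 (median 723). At hour 9 they were 828 to 938 (median 884) and 789 to 899 (median 827). This made a log2 difference of -0.50 ± 0.063 at hour 1, -0.26 ± 0.063 at hour 5 and -0.09 ± 0.063 at hour 9, where it was no longer called. The treated mouse was the lower one on 8, 6 and 8 of 8 arrays, with log2 ratios at hour 9 from -0.15 to -0.01. The call at hour 5 was lost when each hour was fitted on its own. Slide means at hour 1 lay between -0.52 and -0.45.

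Slc40a1 was the 1 member whose corticosterone difference itself was called as changed between hours. It rose by 0.41 ± 0.089 from hour 1 to hour 9, in a comparison in which 0.827% of all probes were called. The value was between 0.40 and 0.42 without each of the slides, where it was not called. No member was called for the steps from hour 1 to 5, where 0.0389% of all probes were called, or from hour 5 to 9, where 0.083% were; at an unadjusted p under 0.05 there were 2 and 1 member probes. In treated mice Slc40a1 rose by 0.54 ± 0.074 between hour 1 and hour 9 (limma, adjusted p = 4.5e-07), without overlap of the groups, and by 0.34 ± 0.074 between hour 1 and hour 5 (adjusted p = 0.0084). In control mice the change from hour 1 to hour 9 was 0.13 ± 0.074 (adjusted p = 0.51). The changed difference is built from the log ratios by which the set was chosen, so its call is a description. The treated mice of hour 1 are part of those ratios, so the p-values in treated mice are not independent evidence.

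The 3 export genes are summed up here as a description, by the log2 differences of their brightest probes at hours 1, 5 and 9. These were 1.17, 1.33 and 1.20 for Heph, 0.54, 0.26 and 0.14 for Cp, and -0.50, -0.26 and -0.09 for Slc40a1.

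**Figure D3:**
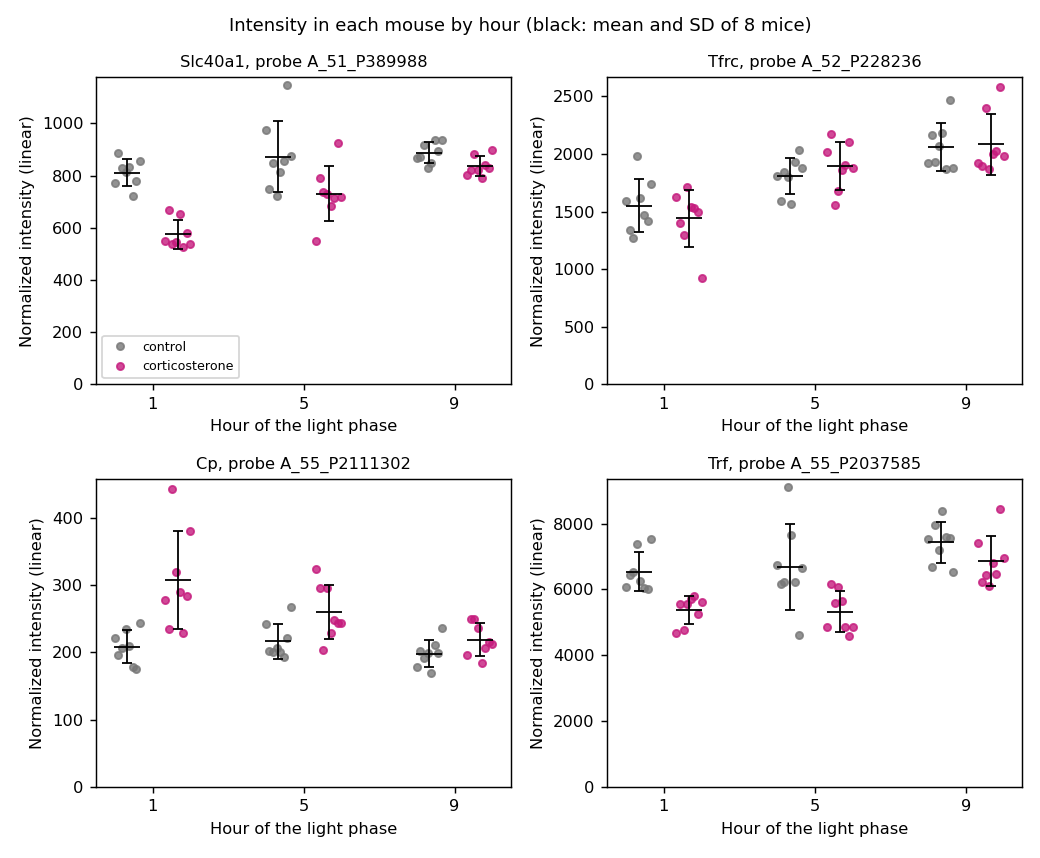
Normalized intensity (linear, vertical axis) in each mouse at hour 1, 5 and 9 for a probe of Slc40a1, Tfrc, Cp and Trf, controls in grey and corticosterone-treated mice in pink, with mean and SD of 8 mice in black. The treated mice of Slc40a1 rise from a median of 548 to 827 between hour 1 and hour 9, Tfrc rises in both treatments, and the treated mice of Cp fall toward the controls.

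Trf, the gene of transferrin, was lower in treated mice. Its brightest probe (A_55_P2037584) ranged at hour 1 from 12040 to 14950 (median 12280) in controls and from 8456 to 13220 (median 9508) in treated mice. At hour 5 the ranges were 10190 to 15830 (median 13310) and 8042 to 12950 (median 9931). At hour 9 they were 11880 to 15170 (median 13890) and 10510 to 13780 (median 11320). The treated mouse was the lower one on all 24 arrays, while the groups overlapped at each hour. The resulting log2 differences were -0.38 ± 0.077, -0.45 ± 0.077 and -0.21 ± 0.077. The call at hour 9 was lost without array 2, 3, 4, 5 or 6 of that hour, and without slide 1 or 2, and the slide means at hour 9 ranged from -0.41 to -0.04.

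A further Trf probe (A_55_P2037585) gave log2 differences of -0.28 ± 0.073, -0.31 ± 0.073 and -0.12 ± 0.073, the last of which was not called and the first not without slide 2. In treated mice it rose by 0.35 ± 0.085 between hour 1 and hour 9 (limma, adjusted p = 0.0049), without overlap of the groups, and by 0.37 ± 0.085 between hour 5 and hour 9 (adjusted p = 0.014). The former was not called without slide 1 (limma, adjusted p = 0.096). The brightest probe rose by 0.26 ± 0.089 in treated mice between hours 1 and 9 and was not called (adjusted p = 0.076). In control mice neither probe was called.

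Tfrc, the gene of the transferrin receptor, was read differently by its 2 probes. The brighter one (A_52_P228236) ranged at hour 1 from 1269 to 1981 (median 1530) in controls and from 920 to 1714 (median 1514) in treated mice, and at hour 9 from 1865 to 2464 (median 1998) and from 1865 to 2583 (median 1991). Its log2 differences between treatments were -0.12 ± 0.083, 0.07 ± 0.083 and 0.01 ± 0.083, and none was called. Without array 8 of hour 1, whose log2 ratio was -0.92, the value at hour 1 was -0.0025. The other probe (A_65_P06446, of another transcript record) was lower in treated mice, by -0.32 ± 0.091 at hour 1, -0.40 ± 0.091 at hour 5 and -0.22 ± 0.091 at hour 9, and was called at hours 1 and 5, although at neither without slide 3 (-0.20 and -0.34). The treated mouse was the higher one on 1, 1 and 0 of 8 arrays for that probe.

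The brighter Tfrc probe rose over the light phase in both treatments. From hour 1 to hour 9 it rose by 0.42 ± 0.096 in control mice (limma, adjusted p = 0.019) and by 0.55 ± 0.096 in treated mice (adjusted p = 8.7e-05). The treated mice of hour 1 and hour 9 did not overlap. In treated mice the step from hour 1 to hour 5 was 0.41 ± 0.096 (adjusted p = 0.019). The call in control mice was lost without array 2, 3 or 7 of hour 1, with limma adjusted p up to 0.072, and without any one of the slides, where the rise was 0.39 to 0.46. The other Tfrc probe changed by 0.18 ± 0.11 in control mice (adjusted p = 0.55) and by 0.28 ± 0.11 in treated mice (adjusted p = 0.13).

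Slc11a2, the gene of DMT1, was slightly higher in treated mice by its brightest probe (A_52_P196476). At hour 1 the controls ranged from 654 to 788 (median 705) and the treated mice from 648 to 915 (median 861). At hour 9 the controls ranged from 759 to 901 (median 862) and the treated mice from 887 to 1064 (median 964). The treated mice exceeded the controls by 0.24 ± 0.051 on the log2 scale at hour 1, 0.19 ± 0.051 at hour 5 and 0.17 ± 0.051 at hour 9. The call at hour 9 was lost without any one of the slides, and that at hour 5 without slide 1 or 3. The other 3 probes, all designed on another transcript record, gave log2 differences between -0.12 and 0.25 and were not called at any hour.

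The same Slc11a2 probe rose over the light phase, by 0.27 ± 0.060 in control mice (limma, adjusted p = 0.012) and by 0.20 ± 0.060 in treated mice (adjusted p = 0.026). With the mean over the 3 Slc11a2 probes of intensity 50 or more, the brightest included, these changes were -0.02 and -0.04. Probe A_55_P2830119 changed by -0.20 ± 0.061 in control and -0.17 ± 0.061 in treated mice. Probe A_51_P388737 changed by -0.12 ± 0.071 and -0.14 ± 0.071, and none of these falls was called. The rise was thus read by the brightest probe and not by the others. The rise in treated mice was not called without array 4, 7 or 8 of hour 9 or array 6 or 8 of hour 1, with limma adjusted p up to 0.10. It was 0.09 without slide 3, and the rise in control mice was not called without slide 1 or 3.

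Over the comparisons of hours within a treatment, 2 member probes were called in control mice between hour 1 and hour 9 (Tfrc and Slc11a2, both higher at hour 9), where 0.537% of all probes were called. In treated mice 6 were called (2 of Cp lower, and 1 each of Slc40a1, Tfrc, Trf and Slc11a2 higher), where 4.02% of all probes were. Between hour 1 and hour 5 none was called in control mice, against 0.0053% of all probes, and 2 were called in treated mice, against 0.546%. Between hour 5 and hour 9 none was called in control mice, against 0.0336%, and 1 in treated mice, against 0.666%. For the comparisons with no call in control mice, 3 member probes each had an unadjusted p under 0.05 in the same limma fit.

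Fth1, the ferritin heavy chain, was slightly higher in treated mice by its single probe (A_52_P49601). At hour 1 it ranged from 89840 to 104100 (median 100200) in controls and from 104600 to 115200 (median 108800) in treated mice, with no overlap. At hour 9 the ranges were 91130 to 106700 (median 104300) and 101100 to 116100 (median 109600). The log2 difference was 0.14 ± 0.035, 0.08 ± 0.035 and 0.11 ± 0.035 at hours 1, 5 and 9, and it was called at hours 1 and 9, the latter not without slide 1 or 3. At hour 5 it was called without any one of 4 of the 24 arrays.

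The size of the Fth1 difference depends on the normalization between arrays, which here was quantile normalization over all channels. With Aquantile normalization, which equalises average brightness only, the log2 differences of Fth1 were 0.48, 0.44 and 0.44, and in the deposited table of ratios they were 0.50, 0.47 and 0.45. The direction was the same in all of these.

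Ftl1, the ferritin light chain, was not called with all arrays in the fit. Its brightest probe (A_55_P2851873) ranged at hour 1 from 35720 to 40580 (median 37280) in controls and from 33650 to 36750 (median 35870) in treated mice, and the log2 differences were -0.07 ± 0.041, -0.09 ± 0.041 and -0.10 ± 0.041. The brightest probe was called at hour 5 without array 3 or 4 of hour 5 or array 3 of hour 9, and at hour 9 without array 2 of hour 9, whereas without array 3 of hour 9 its log2 difference at hour 9 was -0.04. The other Ftl1 probe gave -0.01 ± 0.052, -0.03 ± 0.052 and -0.07 ± 0.052. Both ferritin chains have near-identical copies elsewhere in the genome, and which copies these probes also read was not tested.

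Ireb2, the gene of iron regulatory protein 2, was slightly lower in treated mice. Its single probe (A_51_P196889) ranged at hour 1 from 3707 to 4185 (median 4084) in controls and from 3431 to 3733 (median 3658) in treated mice. It was lower by -0.16 ± 0.041, -0.14 ± 0.041 and -0.11 ± 0.041 on the log2 scale, with the treated mouse the lower one on 8, 7 and 7 of 8 arrays. The call at hour 9 was lost without any one of 18 of the 24 arrays, and that at hour 5 without array 6 of hour 5, where the log2 difference was -0.10. With the control and treated mouse of each array taken as a pair, the call at hour 9 was also lost. The calls at hours 1 and 5 were also lost without slide 2 and slide 3, respectively.

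Aco1, the gene of iron regulatory protein 1, was slightly higher in treated mice by its brightest probe (A_51_P391082). It ranged at hour 1 from 1462 to 1706 (median 1585) in controls and from 1417 to 1833 (median 1734) in treated mice. The log2 differences were small, at 0.11 ± 0.041, 0.12 ± 0.041 and 0.14 ± 0.041. With the control and treated mouse of each array taken as a pair, the call at hour 1 was lost. A dim Aco1 probe (A_55_P2634971, mean intensity 55.99) gave -0.21 ± 0.11, -0.16 ± 0.11 and -0.20 ± 0.11 and was not called, so the 2 probes disagree in sign. The call at hour 1 was lost without any of the 7 other arrays of that hour, but not without array 8, whose log2 ratio of -0.23 stood apart from the others (0.10 to 0.26), and that at hour 5 was lost without array 5, 6 or 7 of hour 5. Without slide 1 or slide 2, Aco1 was not called at any hour, and without slide 3 it was not called at hours 5 and 9.

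The 2 iron regulatory genes and the 2 ferritin chains thus differed by 0.16 or less on the log2 scale by their brightest probes under quantile normalization (Fth1 by up to 0.50 in the other normalizations given above), and none of their probes was called between hours within a treatment. For differences of this size that hold at every hour, corticosterone and a constant dye difference cannot be told apart.

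**Figure D4:**
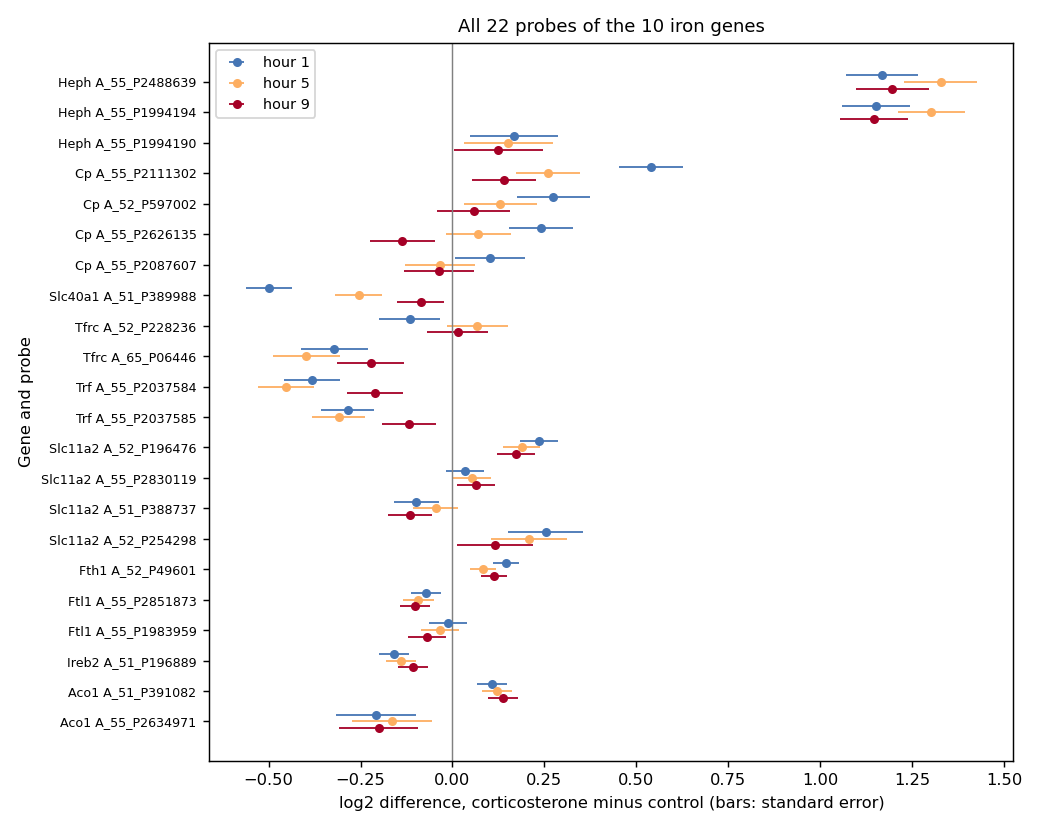
Log2 difference between corticosterone-treated and control mice (horizontal axis) for all 22 probes, with hour 1, 5 and 9 in blue, orange and red and bars for the standard error. The 2 bright Heph probes lie above 1 at all hours, and probes of Heph, Cp, Tfrc, Slc11a2 and Aco1 differ within the same gene.

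Other genes of iron handling were taken from lists drawn up by function. The lists were made with earlier results of these data known, so the p-values of their genes are not independent evidence. Each gene was represented by its brightest probe, and 79 of 87 genes had a mean intensity of 50 or more. The genes named below were picked by their smallest adjusted p over the hours, so the p-values printed for them are a description of that choice. At hour 1, 9 of these 79 were higher and 12 lower in treated mice, where 12.3% and 12.1% of all 15437 named genes of that intensity were called higher and lower. At hour 5, 8 were higher and 15 lower, against 11.5% and 12.2%. At hour 9, 6 were higher and 9 lower, against 9.29% and 7.23%. The median log2 difference of the 79 genes was -0.01, -0.03 and 6.5e-05, next to medians of all such genes that were within 0.01 of 0. Several genes named below, such as Prnp, Pcbp1, Glrx3 and Bmpr1a, differed by a like small amount at every hour. For these, corticosterone and a constant dye difference cannot be told apart.

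**Figure D5:**
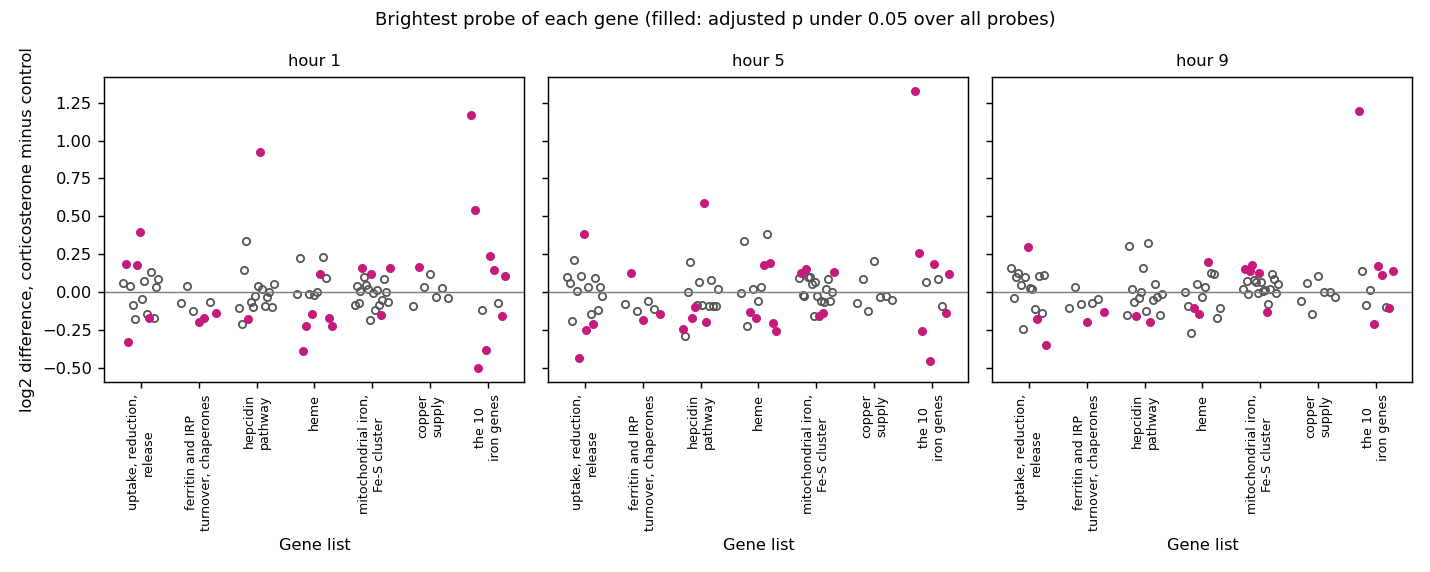
Log2 difference between corticosterone-treated and control mice (vertical axis) at hours 1, 5 and 9 for the brightest probe of each gene in 6 lists of other iron genes (those with a mean intensity of 50 or more) and in the 10 iron genes, filled where called over all probes. Heph lies highest in each panel (1.17, 1.33 and 1.20).

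Among 16 other genes of uptake, reduction and release, 3 were higher and 2 lower at hour 1, 1 and 3 at hour 5, and 1 and 2 at hour 9. Lcn2 (lipocalin 2, which carries iron bound in siderophores) was higher at hours 1, 5 and 9, by 0.40 ± 0.078, 0.39 ± 0.078 and 0.30 ± 0.078, on 8 of 8 arrays each (limma, largest adjusted p = 0.0079). Prnp (the prion protein) was lower on all arrays, by -0.17 ± 0.033, -0.21 ± 0.033 and -0.18 ± 0.033 (largest adjusted p = 4.4e-05). Abcg2 (an exporter of porphyrins and other compounds) was called at hour 9, where it was lower by -0.35 ± 0.063 (adjusted p = 5.7e-05), with 0.09 ± 0.063 at hour 1.

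Of 7 genes of ferritin and iron regulatory protein turnover and of iron chaperones, 3 were lower at hour 1, 2 at hour 5 and 2 at hour 9, and 1 was higher at hour 5. Pcbp1, a chaperone that loads ferritin with iron, was lower by -0.20 ± 0.049, -0.19 ± 0.049 and -0.20 ± 0.049 (limma, largest adjusted p = 0.0025). Glrx3, a carrier of iron-sulfur clusters, was lower by -0.14 ± 0.036, -0.14 ± 0.036 and -0.13 ± 0.036 (largest adjusted p = 0.0040). Pcbp2 was lower at hour 1, by -0.17 ± 0.057 (adjusted p = 0.021).

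Of 16 genes of the hepcidin pathway, which sets the level of ferroportin in the body, 1 was higher and 1 lower at hour 1, 1 and 4 at hour 5, and 0 and 2 at hour 9. Tmprss6 (matriptase-2, which restrains hepcidin in the liver) had control means of 48.0, 52.1 and 44.4 and means in treated mice of 91.0, 79.3 and 55.2 at hours 1, 5 and 9, with log2 differences of 0.92 ± 0.11, 0.59 ± 0.11 and 0.32 ± 0.11. Its mean over all mice passed the limit of 50 through the treated mice, so it is given as a description, although it is the gene counted as higher. Bmpr1a was lower at every hour, by -0.18 ± 0.041 to -0.16 ± 0.041 (limma, largest adjusted p = 0.0037). Smad1 was lower by -0.20 ± 0.053 at hours 5 and 9 (largest adjusted p = 0.0046).

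Of 13 genes of heme synthesis and breakdown, 1 was higher and 5 lower at hour 1, 2 and 4 at hour 5, and 1 and 2 at hour 9. Fech, which puts iron into heme, was higher by 0.12 ± 0.041, 0.18 ± 0.041 and 0.20 ± 0.041 (limma, largest adjusted p = 0.020). Blvrb, a reductase of heme breakdown, was lower by -0.22 ± 0.051 and -0.26 ± 0.051 at hours 1 and 5 (largest adjusted p = 8.3e-04).

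Of 20 genes of mitochondrial iron and iron-sulfur clusters, 3 were higher and 1 lower at hour 1, 3 and 2 at hour 5, and 4 and 1 at hour 9. The 3 with the smallest adjusted p were Fdx2 (lower by -0.14 ± 0.036 at hour 5, limma adjusted p = 0.0022), Iscu (higher by 0.18 ± 0.045 at hour 9, adjusted p = 0.0027) and Ciao1 (higher by 0.16 ± 0.045 at hour 1, adjusted p = 0.0056). Of 7 genes that take up copper or pass it on, 1 was called, the copper transporter gene Slc31a2, higher by 0.17 ± 0.048 at hour 1 (adjusted p = 0.0075).

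Among probes of other genes, those whose intensity over the 48 mice was most like that of the brightest Heph probe belonged to Sult1a1 (a sulfotransferase, Pearson r = 0.95 for each of 2 probes), Aldh1l1 (an astrocyte enzyme of folate metabolism, 0.95), Apoc3 (an apolipoprotein, 0.94) and Timp4 (an inhibitor of metalloproteinases, 0.94). After the means of the 6 groups were taken out, these values were 0.65 and 0.66 for Sult1a1, 0.65 for Aldh1l1, 0.60 for Apoc3 and 0.57 for Timp4. The 48 values share arrays and their normalization, and no p is given. The same measure within groups was 0.93 for the other bright Heph probe, 0.36 for the brightest Cp probe, 0.02 for Slc40a1 and 0.25 for the brightest Trf probe. Some dimmer member probes gave more, at 0.47 (Cp A_52_P597002), 0.41 (Slc11a2 A_55_P2830119) and 0.39 (Tfrc A_65_P06446). The lowest value was -0.22, for the dim Heph probe. No probe of another of the 10 genes was among the 5 most like Heph.

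Transferrin is made by oligodendrocytes and choroid plexus, so markers of these cells are given beside it. Of 10 oligodendrocyte markers, 2 were called higher and 4 lower in treated mice at each hour (against 12.3% and 12.1% of all named genes of intensity 50 or more at hour 1, 11.5% and 12.2% at hour 5, and 9.29% and 7.23% at hour 9), with median log2 differences of -0.15, -0.17 and -0.24. Their summed intensity per mouse ranged from 99870 to 115400 in controls and from 86810 to 104100 in treated mice at hour 1, from 94160 to 153300 and from 81260 to 104200 at hour 5, and from 82220 to 125200 and from 77060 to 101100 at hour 9. No marker of the list was at 0. The members called did not share a direction, since Mobp was higher by 0.59 and Opalin lower by -1.17 at hour 1. The Opalin probe was called at every hour. The study reports such a lasting Opalin change only for a probe of a variant that retains an intron. Its probe expected to read the canonical variant did not show it.

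Of 8 choroid plexus markers, 1 was called at hour 1 (Prlr, higher) and none at hours 5 and 9. Their summed intensity ranged from 1168 to 1856 in controls and from 1370 to 1899 in treated mice at hour 1, from 1365 to 2261 and from 1360 to 1884 at hour 5, and from 1159 to 2260 and from 1297 to 3051 at hour 9. Otx2, Folr1 and Slc4a5 of this list had mean intensities under 50. Whether these cell types have a part in the difference of Trf was not tested.

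The counts of the other marker lists are to be read against the same shares, of 7.23% to 12.3% in each direction. Of 8 astrocyte markers, 2, 2 and 1 were higher and 1, 2 and 2 lower at hours 1, 5 and 9. Of 8 endothelial markers, 2, 2 and 1 were higher and 2, 2 and 1 lower. Of 8 microglial and macrophage markers, none was higher, and 2, 1 and 1 were lower. Of 8 neuronal markers, 0, 3 and 2 were higher and none lower, and no probe of 4 erythroid or 6 leptomeningeal and fibroblast markers was called. Their part in the differences of the iron genes was not tested.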

How the data were processed

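Two-colour Agilent arrays of hippocampal RNA from 48 mice were used. Per the file headers, the authors scanned the arrays and extracted spot intensities with Feature Extraction 10.7.3.1, and the deposited files hold unnormalized foreground and background intensities per dye. The authors also deposited a table of log2 ratios of Cy5 over Cy3, which was used as an alternative; its offset and filters are not given in the sources used here, and its ratios correlated with those computed here at r from 0.988 to 0.997 per array.

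After the study's methods, intensities were corrected with normexp, normalized within arrays by loess and between arrays by quantile in limma 3.58.1 (R 4.3.3). Intensities were raised by an offset of 50 before testing, whereas log2 differences and printed intensities carry no offset. The 3671 control spots of 62976 were left out, as were spots marked as outliers. A separate-channel fit over all 6 groups (intraspot correlation 0.279) was tested with limma, and p-values were adjusted by Benjamini-Hochberg over all 56605 probes. On simulated data for the comparison at hour 1 with 8000 probes, 97% of changes of 0.5 and 100% of changes of 1 (log2) were found, and 5.74% of calls were false. In that simulation 200 probes were changed, and the noise was drawn from the fitted model without dye, slide or litter effects. Smaller changes were not simulated, so these rates check the fit and need not hold for the real arrays. Precision is limited by the 8 arrays per hour. Mice of a group came from several litters.

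Probes were named through RefSeq accessions (34566 probes). The members and all lists were chosen with earlier results of these data known. A gene is represented by its brightest probe. Up to 3 called genes of each pathway list are named, those with the smallest adjusted p (1 gene that the rule picked is not reported here), and the 5 probes most correlated with Heph. Alternatives changed the offset, background correction, normalization, start values, filters, test, slides and arrays used.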

Additional observations from a re-analysis of the deposited data

Results flagged for a closer look

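In 90 groups of 8 values each (intensities per group and log2 ratios per hour of the brightest probes), 14 had a lowest or highest value set apart from the others by Dixon's test, and chance flags about 1 in 20 groups. Of these, 6 involved array 8 of hour 1. Its treated mouse was lowest for Tfrc (919.5), Slc11a2 (648.1) and Aco1 (1417) and highest for Trf (13220), and its log2 ratio was lowest for Tfrc (-0.92) and Aco1 (-0.23).

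The log2 ratio of Heph on array 5 of hour 5 was the lowest of its hour (0.83). That of Slc40a1 on array 1 of hour 5 was also the lowest (-0.83). Array 6 of hour 5 was lowest for Ireb2 in its log2 ratio (-0.45) and in the treated mouse's intensity (3103), and array 6 of hour 1 had the highest Ireb2 log2 ratio of its hour (-0.0696). A control mouse of hour 9 (array 6) was lowest for Slc11a2 (758.9). The treated mouse of array 4 at hour 5 was lowest for Fth1 (102100), and that of array 3 at hour 9 was lowest for Ftl1 (28280).

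The corticosterone difference of Slc40a1 was 0.41 higher on the log2 scale at hour 9 than at hour 1, which the limma test of the difference between hours called. This call rests on the log ratios by which the set was chosen and is not independent evidence.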

How the results depend on the processing

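Over the recomputed values of 47 log2 differences, single arrays left out not counted, 61 lost their call and 4 gained one in settings with a test, and, in settings without one (within a slide, or the mean over a gene's probes), 7 moved by more than the spread and 5 changed sign. The sign changes came from averaging the probes of a gene: Slc11a2 between hours 1 and 9 gave -0.019 in control and -0.036 in treated mice, and Aco1 gave -0.050, -0.022 and -0.031 at hours 1, 5 and 9. These 4 gained calls were of Fth1 at hour 5, and with single arrays left out Fth1 at hour 5 and Ftl1 at hours 5 and 9 also gained calls. Leaving out a slide, which leaves fewer samples, lowered the counts of called member probes: without slide 3 to 5 at hour 5; without slides 1, 2 and 3 to 2, 3 and 3 at hour 9, to 0, 0 and 0 for the change of the corticosterone difference between hours 1 and 9, and to 0, 1 and 0 in control mice between those hours; and without slide 2 to 3 in treated mice. With probes of intensity 50 or more alone, 2 member probes were called for the change of the corticosterone difference, Cp being the added one. Leaving out each array in turn, chosen after seeing the data, gave 10 to 13 calls at hour 1, 8 to 11 at hour 5, 5 to 7 at hour 9, 1 to 1 for the change of the corticosterone difference, 1 to 2 in control and 4 to 7 in treated mice between hours 1 and 9. With the control and treated mouse of each array taken as a pair (limma on the log ratios), 10, 10 and 6 member probes were called at hours 1, 5 and 9, and the calls of Cp A_52_P597002 and Aco1 at hour 1 and of Ireb2 at hour 9 were lost. Mice of different hours carry no shared numbers in the labels and were not paired. The other iron genes and the markers were not recomputed. Among member probes, the dim Heph probe had the largest SE (0.12). Dim probes did not always have large errors, as the 2 dimmest Cp probes had SEs of 0.087 and 0.095, against 0.099 for the brightest Heph probe.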
